A study of Mus musculus with 62 samples.

Results

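The 42 genes described here encode the proteins that build synaptic vesicles and release their contents. They were chosen by name from the rows of the deposited gene tables, and each was found as 1 gene identifier among the 53975 listed. The genes were followed in hippocampus of APP NL-G-F mice and of C57BL/6J mice, called APP and WT here, at 3, 6 and 12 months, and in HT-22 cells, a mouse hippocampal line at passage 4. There were 3 APP libraries at each age, 2 WT libraries at 3 months and 3 WT libraries at each of 6 and 12 months, each of left and right hippocampus, and 14 HT-22 libraries; the labels do not say how many mice a library holds. APP NL-G-F is a knock-in in which the mouse's own App gene carries a humanised amyloid beta sequence with familial Alzheimer mutations, so no added promoter drives it, and the WT mice carry no such allele. HT-22 cells were exposed for 24 h to an LNA, a locked nucleic acid that binds a matching transcript, which either targeted Hsf1 (150 nM) or was a scramble (50 uM per the labels). Amyloid beta peptide 1-42, called Aβ42, or the peptide with its residues reversed was then added at 30 uM from DMSO. Scramble was combined with either peptide in 4 libraries each and anti-Hsf1 in 3 each, which makes 4 groups. All libraries measured long RNA after depletion of ribosomal RNA. Nothing in the labels says whether HT-22 libraries came from separate cultures, so p-values there measure the spread between libraries, which may be technical.

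A presynaptic terminal fills vesicles with transmitter through transporters such as Slc17a7, tethers them with synapsins and docks them at the active zone through RIM, Bassoon, Piccolo and Munc13 proteins. Fusion is driven by the SNARE proteins Vamp2, Snap25 and syntaxin 1, held ready by complexins and triggered when calcium binds a synaptotagmin. Nsf and its SNAP adaptors then take the SNARE complex apart, and dynamin, amphiphysin and Snap91 retrieve the membrane. In the hippocampus most terminals are glutamatergic and use Slc17a7, whereas Slc17a6 is the transporter of thalamic and other subcortical glutamate neurons.

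Levels are given as TPM (transcript abundance corrected for gene length and library total) divided by a size factor for each library, called scaled TPM below. In hippocampus the size factors ran from 0.693 to 1.47, the relative depth (deposited coverage over FPKM) from 1.42 to 3.04, and the 42 genes together held 0.342% to 0.820% of TPM. Changes are differences of log2(scaled TPM + 1), which understates the change of low genes, with adjusted p from limma over all genes tested, called below 0.05. Some hippocampus libraries stood apart in markers of another brain region. The summed level of 6 thalamic markers (Prkcd, Tcf7l2, Zic1, Ramp3, Rgs16 and Lef1) was 408 scaled TPM in APP replicate 1 at 3 months, 123 in APP replicate 2 at 3 months and 130 in APP replicate 1 at 6 months, against 20.9 to 46.0 in the other 14 libraries. All 6 markers were above 0 in each of the 17. All 3 APP libraries at 3 months were low in hippocampus markers and high in oligodendrocyte markers. The sum of 8 hippocampus markers was 123, 173 and 211 in APP replicates 1, 2 and 3 at 3 months, against 225 to 306 in the other 14 libraries. The sum of 6 oligodendrocyte markers was 1478 to 2432 there, against 744 to 1422 in the other 14, and the sum of 7 striatum markers was 65.6 to 208, against 45.2 to 66.2. The part of these markers in the 3-month and age comparisons was not tested. Xist was 70.2 to 136.6 in all APP mice and in WT mice at 3 months and 0.263 to 0.521 in WT mice at 6 and 12 months, where the Y-linked gene Ddx3y was 18.7 to 28.0. The difference in these sex-linked transcripts and the genotype cannot be told apart at 6 and 12 months, nor age from them in WT mice between 3 and 12 months. Nor can a genotype change that differs between 3 months and later ages, as Xist was high in both genotypes at 3 months only. In bulk tissue, fewer cells of a type and less RNA per cell cannot be told apart. In HT-22 cells the LNA's target Hsf1 was 48.7 to 70.9 scaled TPM under scramble with Aβ42 and 43.1 to 51.2 under anti-Hsf1 with Aβ42, and 42.9 to 61.6 against 42.9 to 52.4 with the reverse peptide; neither difference passed the test (adjusted p 0.520 and 0.959).

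All 42 genes were present in every hippocampus library. The most abundant was Snap25, the SNARE of the presynaptic membrane, with 768 ± 72.8 scaled TPM (SD, n = 17 libraries over the 6 groups). Syp, the tetraspan protein most used to mark vesicles, followed with 460 ± 38.9, then Syt1, the fast calcium sensor, with 354 ± 36.4. Vamp2, the vesicle SNARE, stood at 320 ± 44.5 and Slc17a7 at 318 ± 70.3. The scarcest members were Unc13c at 7.29 ± 5.41, Syn3 at 6.97 ± 1.63 and Doc2a at 5.77 ± 2.15. Among the synapsins Syn2 reached 160 ± 26.3 and Syn1 126 ± 19.8, and among the Munc13 priming factors Unc13a reached 36.6 ± 5.19. Of the vesicle GTPases Rab3a stood at 178 ± 18.8 and Rab3b at 11.4 ± 1.96. The steadiest gene was Nsf, the ATPase that recycles SNAREs, whose 17 values lay between 221 and 270.0. The gene with the widest spread on the log2 scale was Slc17a6, with values from 6.83 to 99.7. For 4 genes more than 10% of the exon bases overlap a gene on the other strand (Doc2a with Ino80e, 39.4%; Syp with Gm14703, 16.8%; Syt4 with Gm26658, 14.5%; Syn3 with Timp3, 14.1%), and as no source used here states whether counting used strand, their levels are uncertain.

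**Figure D1:**
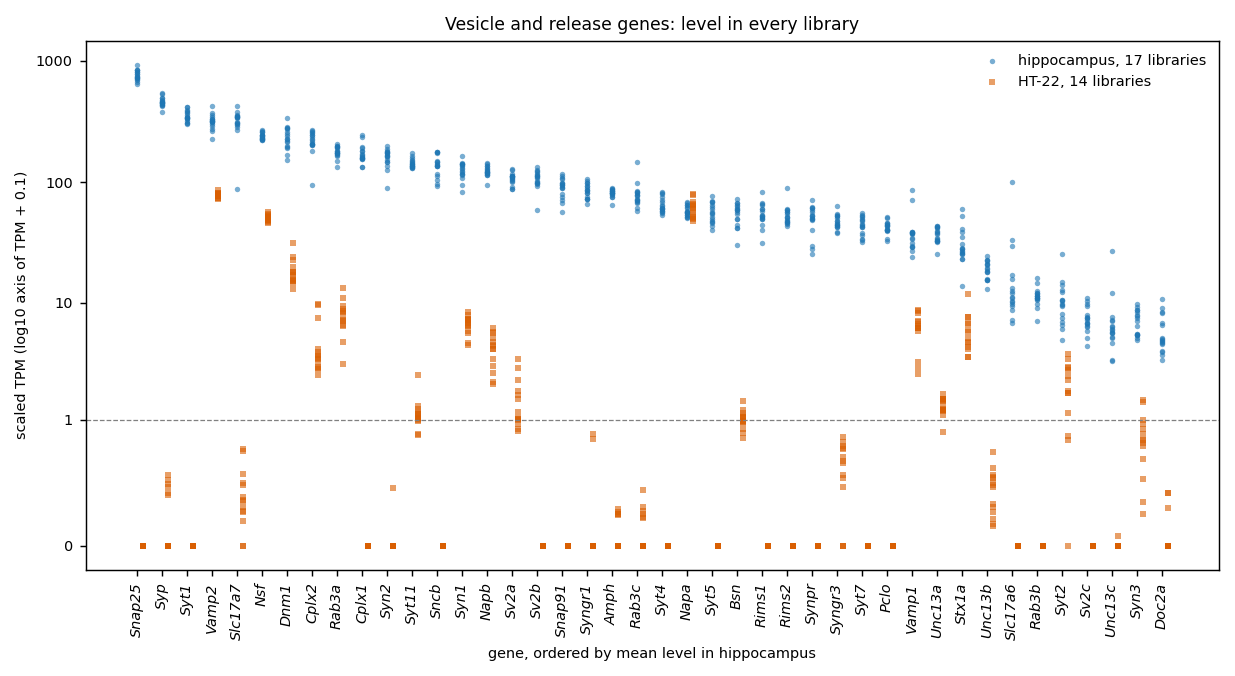
Level of each of the 42 genes in every library, as scaled TPM on a log10 axis of TPM + 0.1, with the genes ordered by mean level in hippocampus (17 libraries, circles) beside HT-22 cells (14 libraries, squares, scaled on their own). The hippocampus points run from Snap25 at 643 to 929 down to Doc2a at 3.33 to 10.7, while 16 genes lie at 0 in every HT-22 library, and the dashed line marks 1.

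Genotype was compared at each age. At 3 months none of the 42 genes was called, beside 0.304% of the 17737 genes tested, and 11 (26.2%) had an unadjusted p below 0.05, beside 13.4% of all genes. The median change of the 42 was -0.09, against a median near 0 over all genes, with 16 genes above 0. APP and WT values did not overlap for 7 genes that were higher in APP (13.8% of all genes did so) and for 5 that were lower (13.4%), shares of 16.7% and 11.9% of the 42. The greatest difference upward was in Slc17a6, the subcortical glutamate transporter. It was 99.7, 33.5 and 17.04 scaled TPM in APP replicates 1, 2 and 3 and 10.4 and 15.7 in WT, a change of 1.53 ± 0.59 (SE; adjusted p = 0.266). The APP replicates follow the order of the thalamic marker sum, 408, 123 and 35.9, and the lowest of them was just above the higher WT value. The greatest difference downward was in Slc17a7, the hippocampal transporter, at 87.4, 305 and 353 in APP against 346 and 421 in WT (-0.85 ± 0.39, adjusted p = 0.365). Only APP replicate 1 lay far from the rest, and the groups overlapped. Without APP replicates 1 and 2 at 3 months and APP replicate 1 at 6 months, the 3-month changes were 0.39 for Slc17a6 and -0.11 for Slc17a7, with APP at 3 months then a single library whose spread is assumed to equal that of the other groups.

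Other genes also stood apart in that library. APP replicate 1 at 3 months gave the highest of the 17 values for 8 of the 42 genes and the lowest for 19. Among the other 16 libraries, WT replicate 2 at 3 months was highest for 9, and APP replicate 2 at 6 months was lowest for 7. The share over all genes was not counted, so these counts do not set the 42 genes apart from other genes. It was highest for Unc13c (26.8 against 3.26 to 12.1 in the other 16), the Munc13 form best known from cerebellum, for Vamp1 (86.3 against 24.1 to 71.4), the vesicle SNARE of caudal brain and fast-spiking neurons, for Rims2 (89.5 against 43.0 to 59.6), an active zone scaffold, and for Rab3c (146 against 57.2 to 98.2). The lowest values included Cplx2 (94.1 against 181 to 270.1), the complexin of excitatory forebrain neurons, Sv2b (58.7 against 92.7 to 134), Syn2 (88.5 against 126 to 197) and Bsn (30.1 against 41.4 to 72.2). The sum of 8 neuron markers outside the 42 genes was 868 to 1286 in APP libraries at 3 months, against 1092 to 1398 in the other groups. The part of the thalamic and neuron markers in these differences was not tested.

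**Figure D2:**
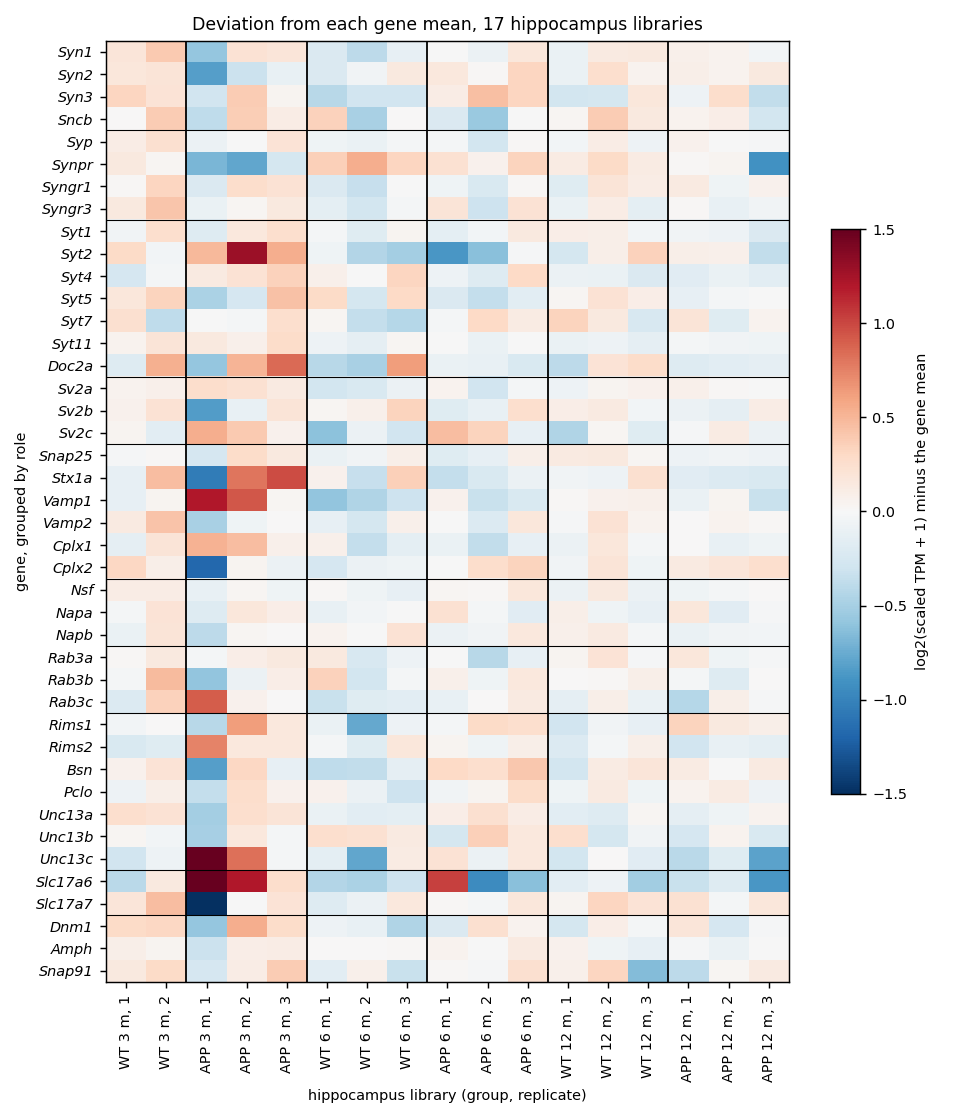
Each gene's log2(scaled TPM + 1) minus its mean over 17 hippocampus libraries, with genes in rows grouped by role and libraries in columns grouped by genotype and age (colour limits at -1.5 and 1.5). APP replicate 1 at 3 months departs in both directions over many rows, being highest for 8 genes and lowest for 19, while most other columns are pale. The share over all genes was not counted.

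At 6 months none of the 42 genes was called, beside 1.73% of all genes, and 4 (9.52%) had an unadjusted p below 0.05, beside 17%. The median change was 0.09, with 28 genes above 0. In all, 8 genes were higher in every APP than in every WT library (19.0% of the 42, beside 11.1% of all genes), and 0 were lower (10.2% of all genes). These were Bsn, Cplx2, Nsf, Rab3c, Rims1, Syn1, Syn3 and Unc13a. The sum of 8 neuron markers outside the 42 genes was 1242 to 1398 in APP and 1092 to 1121 in WT at 6 months. The part of these neuron markers in the 6-month values was not tested. The greatest difference was in Syn3, the least abundant synapsin, which was 7.41, 9.70 and 8.76 scaled TPM in APP and 4.87, 5.42 and 5.41 in WT, a change of 0.62 ± 0.19 (adjusted p = 0.105). All APP values lay above all WT values, and the 95% interval was 0.22 to 1.02. Bsn, the giant scaffold Bassoon, was 67.3, 64.8 and 72.2 in APP and 41.4, 41.9 and 49.2 in WT (0.62 ± 0.21, adjusted p = 0.139), again with no overlap. Without the 3 libraries high in thalamic markers, Bsn alone of the 42 was called, at 0.62 with adjusted p = 0.0378, beside 2.57% of all genes. That setting was chosen after seeing the data, and at 6 months it leaves out APP replicate 1. Syt5, a synaptotagmin, had the greatest difference downward, with 48.1, 43.5 and 49.8 in APP and 68.6, 46.3 and 68.7 in WT (-0.35 ± 0.19, adjusted p = 0.381), and 1 WT library lay within the APP range.

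The 6-month comparison depended on the scale. In TPM as deposited, 34 of the 42 genes were called higher in APP and 42 lay above 0, with a median change of 0.81. All genes had a median of 0.60 on that scale, and 57.6% of the 17840 tested were called higher. On that scale the interaction was called for 27 of the 42 genes, beside 33.1% of all genes, and APP at 6 against 3 months for 5, beside 7.12%. The size factors of the 3 APP libraries at 6 months were 1.13 to 1.47 and those of the 3 WT libraries 0.693 to 0.841, so that scaling took out the shift common to all genes. The share of TPM held by the 42 genes shows the same gap, at 0.547% to 0.820% in APP and 0.342% to 0.436% in WT, whereas their summed scaled TPM was 4857 to 5583 and 4679 to 5184.

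At 12 months none of the 42 genes was called, beside 0.434% of all genes, and 1 (2.38%) had an unadjusted p below 0.05, beside 7.02%. The median change was -0.05, with 15 genes above 0. In all, 2 genes were higher in APP without overlap (Rims1 and Syt11; 4.76% of the 42, beside 8.63% of all genes) and 7 were lower (16.7%, beside 7%). Those 7 were Napb, Rab3b, Snap25, Stx1a, Synpr, Syt1 and Syt5. Synpr, the synaptophysin relative found in mossy fibre and interneuron terminals, was 48.9, 49.6 and 25.3 scaled TPM in APP and 52.8, 59.1 and 52.4 in WT (-0.46 ± 0.20, adjusted p = 0.661). Its 3 WT libraries lay above the 3 APP libraries, of which replicate 3 was far the lowest. Rims1, the main RIM of the active zone, was 67.8, 59.4 and 57.3 in APP and 43.9, 51.8 and 49.3 in WT (0.34 ± 0.22, adjusted p = 0.857). Snap25 was 726, 739 and 727 in APP and 839.6, 845 and 778 in WT, and Syt1 was 339.9, 334 and 304 against 378, 375 and 342. These abundant genes gave changes of -0.17 and -0.16, with 95% intervals of -0.45 to 0.11 and -0.44 to 0.12. The sum of 7 astrocyte markers was 1563 to 1737 in APP and 1206 to 1235 in WT at 12 months, and that of 6 microglia markers was 201 to 214 and 104 to 128. The part of these markers in the 12-month values was not tested.

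The interaction F test, of whether the genotype change differed between ages, called none of the 42 genes, beside 0.468% of all genes. Of the 42, 7 (16.7%) had an unadjusted p below 0.05, beside 16% of all genes, and the smallest adjusted p was 0.172, for Syn2. How narrowly the 3 comparisons bound a difference varied among the genes. The 95% intervals lay wholly within a 2-fold change for 35 of the 42 genes at 3 months, 37 at 6 months and 39 at 12 months. Within a 1.5-fold change lay 15, 20 and 30. At 12 months this covers Syp (-0.21 to 0.25), Nsf (-0.22 to 0.17) and Syt11 (-0.12 to 0.24), while for Slc17a6, Stx1a and Unc13c the interval reached past a 2-fold change.

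**Figure D3:**
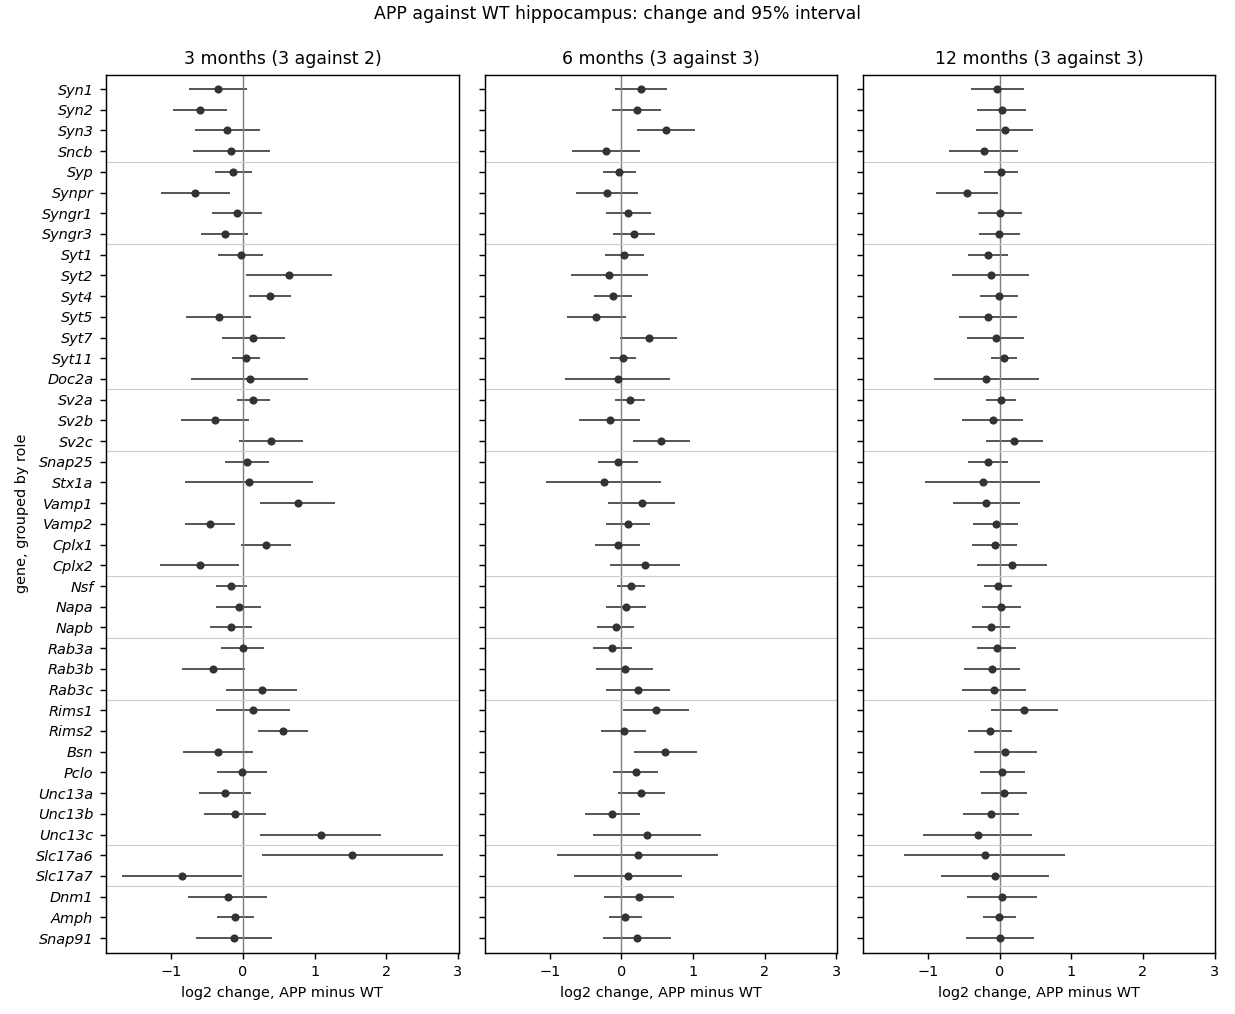
Change of each gene in APP against WT hippocampus at 3, 6 and 12 months, as the difference of log2(scaled TPM + 1) with its 95% interval from limma, genes grouped by role. At 3 months Slc17a6 (1.53) and Unc13c lie farthest right and Slc17a7 (-0.85) farthest left, and at 12 months all 42 points lie between -0.46 and 0.34.

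Age was compared within each genotype. In APP mice 2 of the 42 genes, Syt2 and Vamp1, fell from 3 to 6 months, beside 1.11% of all genes called lower, and Vamp1 fell from 3 to 12 months, beside 1.37%. None was called higher (1.28% and 1.91% of all genes). Syt2, the fast calcium sensor of hindbrain and parvalbumin-positive terminals, was 14.2, 25.4 and 14.8 scaled TPM at 3 months and 4.93, 6.00 and 9.70 at 6 months, a fall of 1.28 on the log2 scale (SE 0.25, adjusted p = 0.0203). All 3-month values lay above all 6-month values. At 12 months it was 10.6, 10.4 and 7.41, again below the 3-month values (-0.84 ± 0.25, adjusted p = 0.0907). Vamp1 was 86.3, 71.4 and 37.8 at 3 months, 38.6, 29.0 and 31.3 at 6 months and 34.2, 37.9 and 29.2 at 12 months. It changed by -0.89 ± 0.22 (adjusted p = 0.0465) and -0.86 ± 0.22 (adjusted p = 0.0460). Replicates 1 and 2 at 3 months were high, and replicate 3 lay within the range of the later ages, so the groups overlapped.

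These calls changed with the libraries used. Leaving out the 3 libraries high in thalamic markers leaves a single APP library at 3 months, replicate 3, so only the size of the changes is given. They were -0.86 for Syt2 at 6 months and -0.32 and -0.17 for Vamp1 at 6 and 12 months. Leaving out APP replicate 1 at 3 months ended both Vamp1 calls and brought in Stx1a, the syntaxin of the release site (-1.11 at 6 months, adjusted p = 0.0186, and -1.09 at 12 months, adjusted p = 0.0105). Stx1a was 13.9, 52.7 and 59.5 at 3 months, 23.0, 25.2 and 28.0 at 6 months and 26.4, 25.7 and 25.3 at 12 months. Its replicate 1 at 3 months was the lowest of all 17 libraries and its replicates 2 and 3 the highest. Leaving out APP replicate 2 at 3 months ended both Vamp1 calls and brought in Bsn at 6 months (0.79, adjusted p = 0.0364). Leaving out APP replicate 3 at 3 months, which leaves the 2 libraries high in thalamic markers, raised the count to 7 genes at 6 months and 6 at 12 months. The call of Syt2 was lost without APP replicate 1 or replicate 2 at 6 months. Each 6-month APP library left out ended the call of Vamp1 at 6 months, and each 12-month APP library left out ended its call at 12 months. Over 16 alternatives in all, Syt2 kept its 6-month call in 12, Vamp1 its 6-month call in 4 and its 12-month call in 6.

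Slc17a6 gave the greatest change of the 42 genes at both ages without passing the test with all libraries. It went from 99.7, 33.5 and 17.04 at 3 months to 29.6, 6.83 and 8.71 at 6 months and 10.9, 12.2 and 7.21 at 12 months (-1.58 ± 0.53 and -1.87 ± 0.53, adjusted p = 0.123 and 0.0724). It was called at 6 months without APP replicate 1 at 6 months (-2.18, adjusted p = 0.0361). Without APP replicate 3 at 3 months it was called at 6 and 12 months (-2.15 and -2.44, adjusted p = 0.0337 and 0.0162). In 14 of 16 alternatives at 6 months and 15 of 16 at 12 months it was not called. The 2 highest values at 3 months and the highest at 6 months are those of the 3 libraries with the high thalamic sums. Slc17a7 was 309, 299 and 344 at 6 months and 357, 299 and 344 at 12 months, and its 12-month change was 0.65 ± 0.35 (adjusted p = 0.387). Without the 3 libraries, which leaves a single APP library at 3 months, that change was -0.09. Synpr had the greatest difference upward from 3 to 6 months, from 29.7, 27.7 and 40.05 to 56.8, 50.4 and 61.3 (0.78 ± 0.20, adjusted p = 0.0563), with no overlap. Among all 42 genes, 2 were higher (Syn2 and Synpr) and 5 lower (Cplx1, Rims2, Sv2a, Syt11 and Syt2) at 6 than at 3 months without overlap, beside 10.2% and 10.2% of all genes, which is 4.76% and 11.9% of the 42. At 12 against 3 months the counts were 3 higher (7.14%, beside 11.3%) and 8 lower (19.0%, beside 10.7%).

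**Figure D4:**
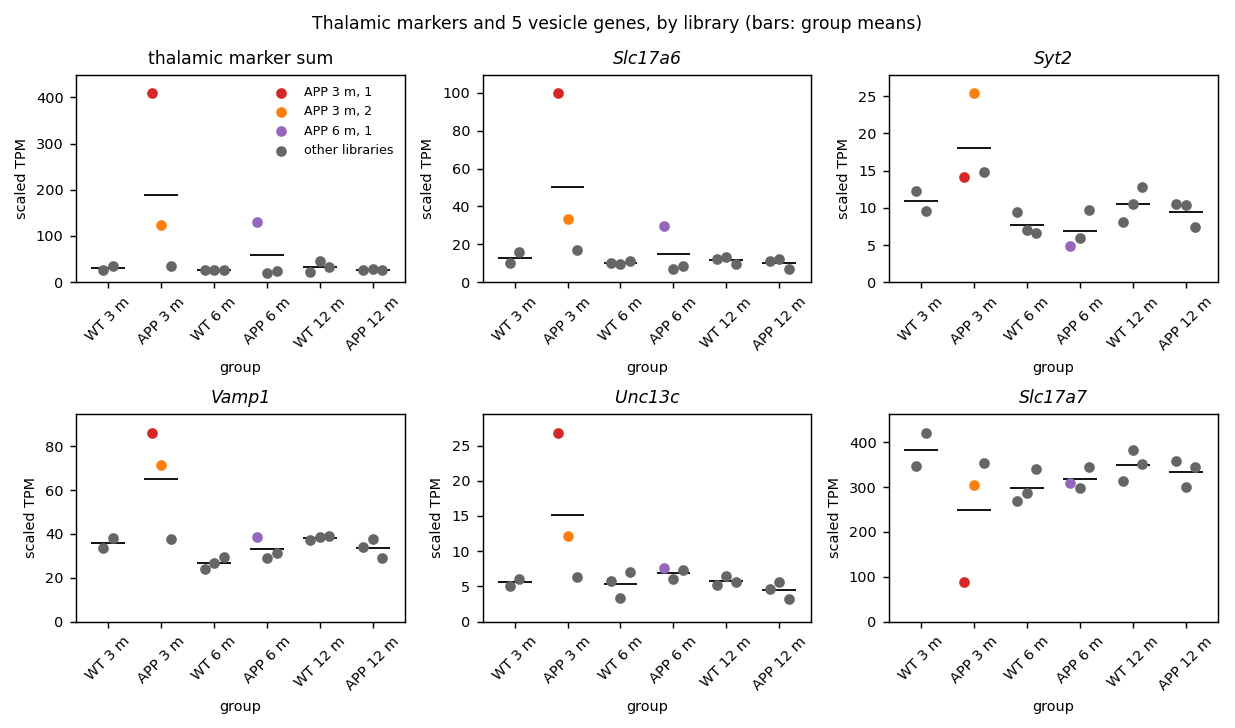
Summed scaled TPM of 6 thalamic markers and scaled TPM of 5 genes in each hippocampus library, by group, with group means as bars and 3 libraries in colour. The red point, APP replicate 1 at 3 months, is highest for the marker sum (408), Slc17a6 (99.7), Vamp1 (86.3) and Unc13c (26.8) and lowest for Slc17a7 (87.4).

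In WT mice none of the 42 genes was called at 12 against 3 months (0.062% of all genes were, and 1 of the 42, or 2.38%, had an unadjusted p below 0.05, beside 8.29%) or at 12 against 6 months (0 of all genes, and 3 of the 42, or 7.14%, at an unadjusted p below 0.05, beside 6.85%). From 3 to 12 months the median change was -0.12, with 8 of 42 genes above 0, against 50.5% of all genes. Snap25 alone was higher without overlap (2.38% of the 42, beside 13.3% of all genes) and 7 genes were lower (16.7%, beside 13.7%). Syn3 had the greatest difference downward, from 8.77 and 7.99 scaled TPM to 5.44, 5.52 and 7.77 (-0.39 ± 0.21, adjusted p = 0.659). Rims2 had the greatest difference upward, from 45.1 and 46.5 to 45.6, 51.6 and 56.3 (0.15 ± 0.16, adjusted p = 0.857). From 6 to 12 months the median was 0.12, with 34 of 42 above 0, against 50.1% of all genes. Vamp1 led with 24.1, 26.8 and 29.7 at 6 months and 37.4, 38.7 and 39.0 at 12 months (0.50 ± 0.22, adjusted p = 0.715), and its groups did not overlap. Syt4, an atypical synaptotagmin of dense-core vesicles, stood lowest, at 67.8, 64.3 and 80.7 against 60.6, 59.9 and 55.1 (-0.27 ± 0.12, adjusted p = 0.726). Without overlap 5 genes were higher (11.9%, beside 6.06% of all genes) and 2 lower (4.76%, beside 6.15%). The genes' summed scaled TPM was 4679 to 5184 at 6 months and 5139 to 5711 at 12 months.

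A companion list of other presynaptic genes held 71 names, of which 70 were found and tested in hippocampus. At 3 months 2 were called, both lower in APP (2.86% of the 70, beside 0.304% of all genes), and at 6 months 1 was called, higher (1.43%, beside 1.73%). At 12 months 0 were called (beside 0.434%), with 3 (4.29%) at an unadjusted p below 0.05, beside 7.02% of all genes. Doc2b, a calcium sensor of spontaneous release and relative of Doc2a, was 1 of the 2 called at 3 months and the gene called at 6 months. It was 10.8, 13.6 and 15.5 scaled TPM in APP and 26.1 and 24.7 in WT at 3 months (-0.90 ± 0.15, adjusted p = 0.0300). At 6 months it was 23.5, 29.4 and 27.7 against 16.5, 17.1 and 15.1 (0.69 ± 0.13, adjusted p = 0.0209), and at 12 months 19.6, 20.4 and 22.8 against 16.8, 21.9 and 17.4 (0.16 ± 0.13, adjusted p = 0.926). The groups did not overlap at 3 or 6 months, in opposite directions, and the interaction was called (adjusted p = 0.00623), the only one of the list, beside 0.468% of all genes. The sex-linked transcripts set the genotypes apart at 6 but not at 3 months, and this turn in Doc2b cannot be told apart from that. Without the 3 libraries high in thalamic markers the change was -0.68 at 3 months, with a single APP library there. At 6 months, without APP replicate 1, it was 0.78 (adjusted p = 0.0105). Syt17, an atypical synaptotagmin, was also lower in APP at 3 months (10.0, 12.4 and 13.0 against 24.0 and 26.3; -1.04 ± 0.19, adjusted p = 0.0438). Within APP mice 5 of the 70 rose from 3 to 6 months: Doc2b (0.97), Syt17 (0.95), Ppfia2 (0.67), Stxbp6 (0.66) and Ppfia4 (0.44), which is 7.14% of the list, beside 1.28% of all genes called higher. At 12 against 3 months Doc2b rose (0.63, adjusted p = 0.0195; 1.43%, beside 1.91%) and Syt6 fell by 0.98 on the log2 scale (adjusted p = 0.0497; 1.43%, beside 1.37%). Leaving out the 3 libraries leaves 1 APP library at 3 months, so only the size of the changes is given. The changes from 3 to 6 months were then 0.84 for Doc2b, 0.97 for Syt17, 0.63 for Ppfia2, 0.76 for Stxbp6 and 0.44 for Ppfia4. Those from 3 to 12 months were 0.41 for Doc2b and -1.03 for Syt6. In that setting 2 others of the list changed from 3 to 12 months by -0.67 (Sh3gl3, an endophilin) and -0.81 (Syt16). With all libraries these gave -0.38 (adjusted p = 0.159) and -0.23 (adjusted p = 0.683). In WT mice none of the list was called in either age comparison, with 7 (10.0%) and 5 (7.14%) at an unadjusted p below 0.05, beside 8.29% and 6.85% of all genes.

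HT-22 cells held few of the 42 genes. Of these, 15 had a mean of at least 1 scaled TPM over the 14 libraries, 11 had a mean below 1, and 16 were listed at 0 in every library. Scaled together with the hippocampus libraries, 12 reached 1. The genes at 0 included Snap25, Syt1, Syt4, Syt5, Syt7, Cplx1, Rims1, Rims2, Pclo, Synpr and Slc17a6, and the 42 genes together held 0.0153% to 0.0322% of TPM. Syp was at 0 in 8 of 14 libraries and at most 0.285. The sum of 8 neuron markers outside the list was 1.71 to 7.799, against 868 to 1398 in hippocampus. Rbfox3, Elavl4, Nefl and Nefm were listed at 0 in every library and Map2 in 13 of 14, while Col1a2 was 1260 to 2174, Col1a1 588 to 1480 and Vim 421 to 991. Elavl3, Tubb3 and Camk2a were above 0 in every library, and the sum of 8 hippocampus markers was 28.8 to 66.6, against 123 to 306 in hippocampus. The sum of 6 thalamic markers was 57.4 to 95.6, against 20.9 to 408 in hippocampus, so such sums do not tell a region in this line. Those of 6 choroid plexus and 6 microglia markers were 36.3 to 111 and 34.7 to 78.3. Those of 7 striatum and 6 GABA neuron markers were 2.02 to 7.12 and 0 to 0.0291.

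The genes that HT-22 cells held were led by SNARE and disassembly genes. Vamp2 was the highest, at 78.0 ± 3.60 (SD, n = 14 libraries over the 4 groups), followed by Napa, the general SNAP adaptor, at 60.8 ± 10.2, and Nsf at 50.5 ± 3.04. Dnm1, the dynamin of nerve terminals, was 18.5 ± 4.87. Rab3a (7.86 ± 2.50), Syn1 (6.59 ± 1.14), Vamp1 (6.09 ± 1.98), Stx1a (5.84 ± 2.19), Cplx2 (4.50 ± 2.51) and Napb, the neuronal SNAP adaptor (4.10 ± 1.32), came next. Syt2 (2.00 ± 1.09), Sv2a (1.51 ± 0.80), Unc13a (1.32 ± 0.23), Syt11 (1.15 ± 0.41) and Bsn (1.01 ± 0.20) completed the 15. By role, all 3 disassembly genes and 4 of 6 SNAREs and complexins reached 1, against 0 of 4 tetraspan proteins, 0 of 2 glutamate transporters, 2 of 7 active zone genes and 2 of 7 calcium sensors.

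RefSeq promoter windows (GRCm38.p6, 250 bases before to 50 after a start) were matched by symbol for 33 of the 42 genes, with 42 windows in all. Their median number of CpG pairs was 17.5, against 7 over 32851 windows of all genes. Counted by window and not by gene, it was 23.5 for members with a mean of at least 1 in HT-22 cells (16 windows of 14 genes). It was 18 for those below 1 (9 windows of 8 genes) and 9 for those at 0 (17 windows of 11 genes). Genes with several windows weigh more in these medians, such as Sv2b among those at 0, with 0, 2, 9 and 10 pairs. Each window was searched on both strands for 2 motifs that do not overlap each other here: the core of the RE1 element bound by the neuronal repressor REST and the cyclic AMP response element TGACGTCA. No window of the 42 genes held the RE1 core exactly, beside 0.0517% of all windows. A search added after this one, with 1 mismatch allowed, found it in 3 of the 42 windows (7.14%, beside 0.353% of all), those of Syn1, Syt2 and Slc17a6. Counted from 1 at the first base of the core, the substitutions were A11T for Syn1, A1C for Syt2 and C3G for Slc17a6, whose run AGGACCACGGACAG lies on the strand opposite the gene. The cyclic AMP element was in 2 windows, of Syn1 and Napa (4.76%, beside 1.79% of all), both among the genes held by HT-22 cells. The stretches below run from 250 bases before to 10 after the start. Vamp1 and Syt2 are shown as the genes called with age, and Syn1 and Napa as those that hold the cyclic AMP element. The window of Slc17a6 is not shown. Capitals mark CpG pairs in Vamp1 and the RE1-like run in Syt2. In Syn1 they mark the RE1-like run and then the cyclic AMP element, and in Napa the cyclic AMP element. Vamp1 lies at chr6:125215331-125215590 on the plus strand, Syt2 at chr1:134646362-134646621 on the plus strand, Syn1 at chrX:20920909-20921168 on the minus strand and Napa at chr7:16098330-16098589 on the plus strand.
Vamp1: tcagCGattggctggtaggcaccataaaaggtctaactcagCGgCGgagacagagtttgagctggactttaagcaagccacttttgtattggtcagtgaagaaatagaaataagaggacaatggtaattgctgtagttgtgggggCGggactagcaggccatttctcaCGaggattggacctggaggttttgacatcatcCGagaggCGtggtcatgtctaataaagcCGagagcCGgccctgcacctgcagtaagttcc
Syt2: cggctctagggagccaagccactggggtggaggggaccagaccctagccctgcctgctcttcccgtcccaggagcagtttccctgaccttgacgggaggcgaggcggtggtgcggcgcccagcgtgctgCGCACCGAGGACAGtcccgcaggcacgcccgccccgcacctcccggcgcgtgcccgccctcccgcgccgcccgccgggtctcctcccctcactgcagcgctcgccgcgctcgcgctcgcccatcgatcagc
Syn1: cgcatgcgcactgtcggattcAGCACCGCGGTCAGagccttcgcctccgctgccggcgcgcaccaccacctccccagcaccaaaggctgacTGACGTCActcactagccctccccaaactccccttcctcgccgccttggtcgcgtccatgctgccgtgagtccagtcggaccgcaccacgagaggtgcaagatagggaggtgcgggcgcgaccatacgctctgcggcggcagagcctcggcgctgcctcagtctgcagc
Napa: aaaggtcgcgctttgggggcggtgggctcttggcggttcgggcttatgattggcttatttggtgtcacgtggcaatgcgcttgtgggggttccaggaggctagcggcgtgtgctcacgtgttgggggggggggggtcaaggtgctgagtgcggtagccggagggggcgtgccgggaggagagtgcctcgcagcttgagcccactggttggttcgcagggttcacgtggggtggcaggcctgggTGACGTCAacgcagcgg

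In the 4 HT-22 comparisons, tested over 17207 genes, none of the 15 genes was called. Over all genes, 0 were called in 3 of the comparisons and 0.0232% under anti-Hsf1 against scramble with Aβ42. Of the 15, 1 (6.67%) had an unadjusted p below 0.05 for Aβ42 against the reverse peptide under scramble, beside 5.03% of all genes, and 0 in each of the other 3, beside 3.60% to 9.03%. That gene was Napa, at 63.5, 65.0, 79.0 and 79.7 scaled TPM with Aβ42 and 51.7, 49.8, 56.9 and 68.4 with the reverse peptide (0.34 ± 0.13, adjusted p = 0.953), and the groups overlapped. Under anti-Hsf1, Stx1a had the greatest difference upward with Aβ42, at 7.63, 7.61 and 5.70 against 4.27, 4.69 and 6.76 (0.37 ± 0.33, adjusted p = 1). Syt2 had the greatest difference downward, at 1.72, 2.41 and 0 against 3.40, 2.72 and 1.80 (-0.77 ± 0.47, adjusted p = 1). The intervals for Aβ42 were wide for such low genes, but Vamp2 lay within -0.23 to 0.16 and Nsf within -0.22 to 0.21 under anti-Hsf1. Without overlap 3 of the 15 were higher with Aβ42 under anti-Hsf1 (20% of them: Dnm1, Syt11 and Vamp1; beside 8.75% of all genes) and 0 were lower (9.62%); under scramble 0 of the 15 lay apart either way (0.936% of all genes higher and 1.42% lower).

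Anti-Hsf1 was compared with scramble under each peptide, and 3 scramble libraries stood apart. With the reverse peptide, Napb had the greatest difference upward, from 2.94, 4.13, 4.13 and 2.07 under scramble to 6.18, 5.07 and 4.42 (0.55 ± 0.29, adjusted p = 0.959), without overlap, and Cplx2 went from 3.86, 4.09, 3.65 and 7.51 to 2.89, 3.61 and 2.75 (-0.46 ± 0.36, adjusted p = 0.959). Those were the only 2 of the 15 without overlap, 1 each way (6.67%, beside 3.14% of all genes higher and 2.82% lower). With Aβ42, Cplx2 went from 3.44, 2.82, 9.66 and 9.70 under scramble to 3.36, 3.17 and 2.47 (-0.74 ± 0.36, adjusted p = 0.551). Vamp1 went from 8.595, 7.01, 2.51 and 2.86 to 6.90, 8.64 and 8.19 (0.64 ± 0.33, adjusted p = 0.556). In both genes scramble replicates 3 and 4 with Aβ42 lay apart from replicates 1 and 2, as did scramble replicate 4 with the reverse peptide. In these 3 libraries the sum of 6 fibroblast and cycling markers was 4879 to 5193, against 2916 to 3479 in the other 11. There Cplx2 (7.51 to 9.70 against 2.47 to 4.09) and Napa (68.4 to 79.7 against 47.7 to 65.7) lay above all other libraries, and Vamp1 (2.51 to 3.21 against 5.80 to 8.64) and Napb (2.07 to 2.57 against 2.94 to 6.18) below them. The rest of the 15 genes overlapped. The share of all genes lying apart in these 3 libraries was not counted, so this split does not set the 15 apart from other genes. With Aβ42, 0 of the 15 genes were without overlap in either direction (4.38% of all genes higher and 4.16% lower). Without these 3 the changes with Aβ42 were -0.05 for Cplx2 and 0.02 for Vamp1. In TPM as deposited, where the median of all genes was -0.62 for anti-Hsf1 against scramble with Aβ42 and -0.52 for Aβ42 against the reverse peptide under anti-Hsf1, 5 and 2 of the 15 genes were called lower, beside 50.5% and 24.2% of all genes. Of the companion list 36 genes were tested in HT-22 cells and 0 were called, with 1 to 5 per comparison (2.78% to 13.9%) at an unadjusted p below 0.05, beside 3.60% to 9.03% of all genes.

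**Figure D5:**
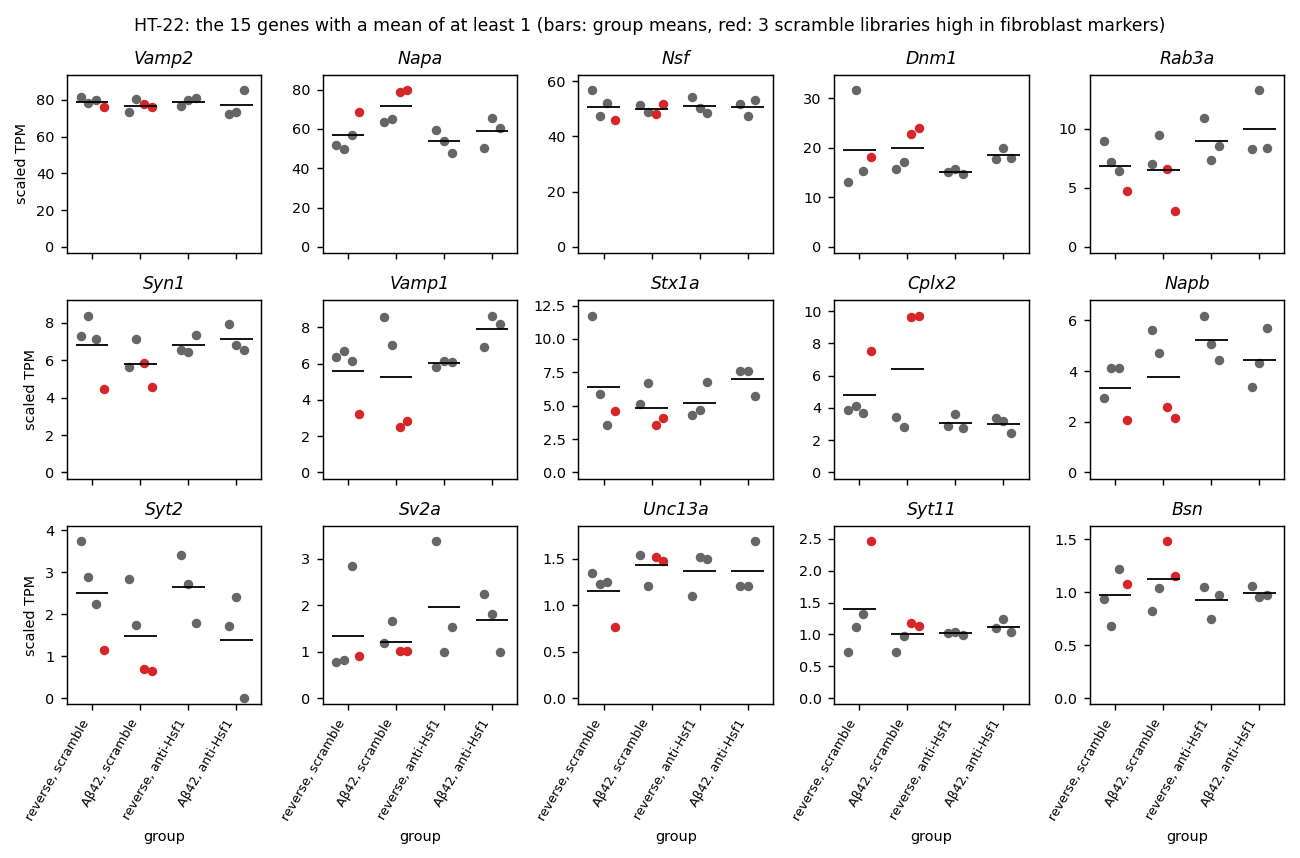
Scaled TPM of the 15 genes with a mean of at least 1 in HT-22 cells, by group, 1 point per library with group means as bars. The 3 red points are the scramble libraries high in fibroblast markers, which lie above all others for Cplx2 (7.51 to 9.70) and Napa and below all others for Vamp1 (2.51 to 3.21) and Napb. The share of all genes lying apart in these libraries was not counted.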

How the data were processed

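Gene abundance tables, 1 per library, give TPM, FPKM and coverage per gene, as the authors deposited them and per the file headers. The submitters' processing notes name cutadapt 1.18, HISAT2 2.1.0, StringTie 1.3.4d, BWA 0.7.17, bedtools 2.26.0 and mm10 (GRCm38) without roles; no source used here states strand use. Short-RNA libraries were not used here.

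TPM was summed per gene identifier and divided by median-of-ratios size factors within hippocampus (17 libraries) and within HT-22 cells (14). Deposited TPM keeps no read counts, so counting error is unknown; coverage over FPKM gave relative depth only. Genes with a mean scaled TPM of at least 1 were tested as log2(scaled TPM + 1) in limma 3.58.1 (R 4.3.3) with trend and robust options, 1 fit per system over all groups, Benjamini-Hochberg adjustment over all genes tested and a threshold of 0.05. The procedure was tested on simulated data. Tables and figures used Python 3.11.15, pandas 2.3.3 and matplotlib 3.10.9. Promoters are RefSeq's (GRCm38.p6). Alternatives were TPM as deposited, quantile normalisation, other pseudocounts and filters, array weights, only the groups compared, a replicate block, each library left out and 3 libraries left out.

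The members and lists were chosen with earlier results of these data known. Genes are named where called, where greatest in rise or fall in a comparison, for the 5 highest and 3 lowest in hippocampus, for up to 12 of the highest in HT-22 cells, and for up to 3 companion genes per direction; other genes named were chosen after their values were seen.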

Additional observations from a re-analysis of the deposited data

Results flagged for a closer look

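In the groups of 4 HT-22 libraries, each of the 15 genes with a mean of at least 1 scaled TPM was examined for a library far from the other 3 by Dixon's criterion at the 95% level, which gave 3 cases among 30. Chance gives about 1 in 20. With the reverse peptide under scramble, Cplx2 was 7.51 in replicate 4 against 3.65 to 4.09 in the others, and Vamp1 was 3.21 there against 6.17 to 6.70. Replicate 4 is 1 of the 3 scramble libraries with high fibroblast markers, whose part in these values was not tested. Sv2a was 2.85 in replicate 3 of that group against 0.777 to 0.907 in the others.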

How the results depend on the processing

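Counts of the 42 genes called are given for each alternative that moved them by more than 1.5 times, and quantile normalisation called 3 for APP at 6 against 3 months, where 2 were called. In TPM as deposited, 34 were called for APP against WT at 6 months, 27 for the interaction, 5 for APP at 6 against 3 months and 0 for APP at 12 against 3 months. The HT-22 counts on that scale were 2 for Aβ42 under anti-Hsf1 and 5 for anti-Hsf1 with Aβ42. Some changes turned direction in TPM as deposited: Syt5 at 6 months was 0.36, Rims2 in WT at 12 against 3 months -0.19 and Stx1a with Aβ42 under anti-Hsf1 -0.13. For APP at 6 against 3 months the count was 1 with no filter, 4 with a mean of at least 5, 1 with array weights and 0 with only the groups compared. At 12 against 3 months it was 0 with quantile normalisation, 0 with no filter, 2 with a mean of at least 5, 2 with array weights and 0 with only the groups compared. Array weights called 2 genes for anti-Hsf1 with Aβ42 (Cplx2 -1.10 and Vamp1 1.01). Without the 3 libraries high in thalamic markers, an alternative chosen after seeing the data, 1 gene was called at 6 months. The APP age comparisons then rest on a single APP library at 3 months, so their counts are not given. Slc17a7 gave -0.087 there for APP at 12 against 3 months. Leaving out each library in turn gave 0 to 3 genes for APP against WT at 3 months, 0 to 7 for APP at 6 against 3 months, 0 to 6 at 12 against 3 months, 0 to 1 for the interaction and 0 in the other comparisons. The 3 at 3 months were Syn2, Unc13c and Vamp1, without APP replicate 3. The cause of these differences was not tested. With a replicate block, Syt2 (adjusted p = 0.0308) and Syn2 (adjusted p = 0.0472) were called for APP at 6 against 3 months and Vamp1 was not, while Vamp1 kept its call at 12 months (adjusted p = 0.0496). Deviations of libraries of the same number were compared over 40 pairs in hippocampus (r from -0.148 to 0.227, 3 over 0.1). In HT-22 cells r ran from -0.216 to 0.575 over 19 pairs, with 3 over 0.1. Those 3 all joined Aβ42 and the reverse peptide under scramble, at 0.231, 0.247 and 0.575 for replicates 1, 2 and 4. Replicate 3 gave -0.216 there. The numbers were not taken as a pairing, and whether the scramble libraries are paired by number was not tested. With 2 or 3 libraries per mouse group, 95% intervals had a median half-width of 0.39 to 0.44, which bounds what could be detected.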
